A study of Caenorhabditis elegans with 6 samples.

Results

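Loss and excess of a transcription factor need not move a gene by the same amount, and 5 genes of the *hlh-11* mRNA-seq table were set apart for that reason. They are *F46F2.3*, *ccch-1*, *msrp-3*, *endu-2* and *W02D9.6*, 5 of the 85 genes in the table, each with 1 value in each of 6 libraries. They lie outside the collagen and immune families and were chosen because their log2 changes from the wild type differed clearly in size between worms without functional *hlh-11* (KO) and worms with an excess of it (OE). Those same changes are therefore described below and not tested.

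The libraries were made from polyA RNA of pooled, synchronized *C. elegans* whole animals at the young adult stage, grown on *E. coli* OP50, with 2 libraries of *hlh-11* KO worms, 2 of *hlh-11* OE worms and 2 of wild-type N2 worms (WT). The study's KO strain carries 1 CRISPR/Cas9 allele, *hlh-11(ko1)*, a frameshift in the second exon. Both mutant groups are labelled as of the N2 strain. No source used here ties the sequenced OE worms to 1 transgene or promoter. *hlh-11* itself was not analysed here, so the genotype labels were not checked against its level. Whether the 2 libraries of a genotype came from separate cultures is not stated either, and the spread between them may be technical.

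HLH-11 is a basic helix-loop-helix protein, a class of transcription factors that pair through the helix-loop-helix part and bind E-box DNA with the basic part. Its mammalian homolog is AP-4 (TFAP4). In worms the intestine is a main site of fat storage and use, and the study compared these genotypes to ask which genes, above all those for fat breakdown, depend on HLH-11.

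The values are RPKM, the reads of a gene per kilobase of its length, scaled to the depth of the library. The whole table is a selection in which KO and OE means lie on opposite sides of the WT mean for all 85 genes, 60 with the KO mean above and 25 with it below. Library totals, worked out from the RPKM values as whole reads, ran between 16538554 and 24023096 reads. The table holds 6 sperm genes, whose summed RPKM was 1288 to 1328 in KO, 417 to 489 in OE and 636 to 806 in WT, and 7 collagen genes of the cuticle, with 8018 to 8673 in KO, 4268 to 4567 in OE and 5404 to 6024 in WT. Both sums moved with the genotypes. Each gene had to move to be in the table, so this is no check of tissue. The part of both sums in the values of the 5 genes was not tested. The table holds 1 gene of a list of intestinal markers, the intestinal actin *act-5*, at 767 to 774 RPKM in KO, 465 to 521 RPKM in OE and 596 to 613 RPKM in WT. Of a list for stress and RNA quality it holds *gst-4*, a glutathione S-transferase gene, at 16.7 to 18.1 RPKM in KO, 57.0 to 59.5 RPKM in OE and 27.5 to 34.4 RPKM in WT. The part of either gene in the results was not tested. The table holds none of the lists of muscle, neuron or oocyte and embryo markers. Any marker in it was selected to move, so neither tissue nor stress could be checked. In whole worms, fewer cells of a type and less RNA per cell cannot be told apart.

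A change is given below as the difference from the WT mean of log2(RPKM + 0.5), which understates the change of low values. Its standard error, from limma fitted to all 85 genes and 6 libraries, was 0.16 for every gene, since the model gave all genes 1 pooled SD of 0.16. The unequal response was measured as the absolute KO change minus the absolute OE change, so it is positive where the gene moved further in KO and negative where it moved further in OE. Its standard error was 0.27. Over the 85 genes this difference in size had a median of 0.08, with a range of -1.55 to 2.63. It was positive for 50 genes and negative for 35. In this fit 94.1% of the 85 genes differed from WT in KO and 89.4% in OE at an adjusted p under 0.05. The table was selected for opposite changes in KO and OE, so nothing is read from these high shares. The size difference passed for 8.24% with the larger change in KO and for 3.53% with the larger change in OE. The 5 genes were chosen on these contrasts, so no test is given for them. The shares hold the chosen genes themselves. They make up 2 of the 7 genes with the larger change in KO and all 3 with the larger change in OE. All 5 were picked for such differences, so their passing is no result and the shares are no separate background. With each gene's own spread both counts were 0 by limma (7 and 1 at an unadjusted p under 0.05), and without WT replicate 1 they were 4 and 0, and without WT replicate 2 they were 2 and 0.

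Of the 5 genes, *F46F2.3* and *ccch-1* moved further in KO, and *msrp-3*, *endu-2* and *W02D9.6* moved further in OE. Each of these sets holds genes higher in KO and genes lower in KO. Over the table, 43 of the 60 genes with the KO mean above WT moved further in KO, against 7 of the 25 genes with it below. *ccch-1*, *msrp-3* and *endu-2* were higher in KO and lower in OE than in WT, whereas *F46F2.3* and *W02D9.6* were lower in KO and higher in OE. In all 5 genes both KO libraries lay beyond both WT libraries, and so did both OE libraries on the other side. The same held for 98.8% of the 85 genes in KO and for 98.8% in OE, a share that the choice of the table had set, so nothing is read from it.

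**Figure D1:**
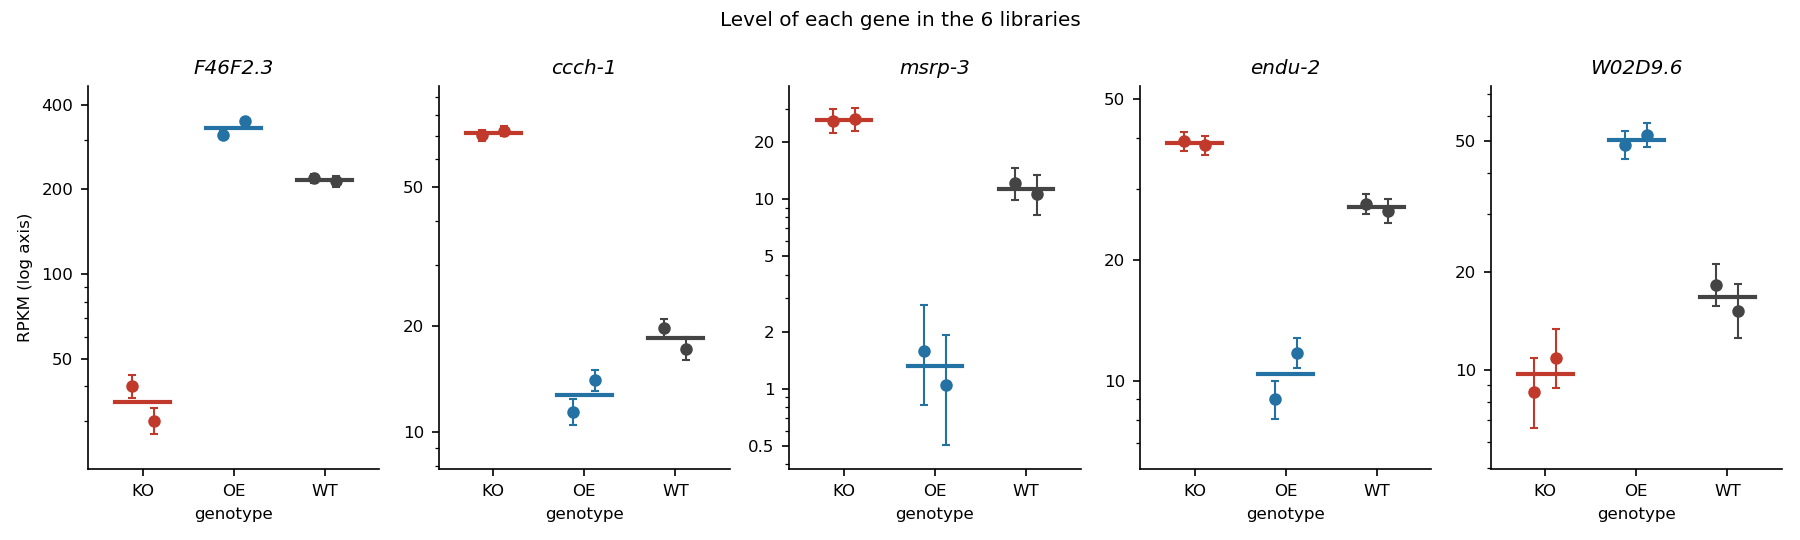
Level of each of the 5 genes in RPKM on a log axis, by genotype. Points are single libraries with 95% Poisson intervals of their reads, which cover counting error only, and bars are the means of 2 libraries. *F46F2.3* and *ccch-1* have WT values near the OE values, and *msrp-3*, *endu-2* and *W02D9.6* have WT values nearer the KO values on this axis.

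*F46F2.3* (WBGene00009787) was the most abundant of the 5 genes in WT and OE and had the largest KO change of them. It is a protein-coding gene of chromosome X of WBcel235, from 15259579 to 15260287 on the minus strand, with 2 exons and a coding sequence of 411 bases. The annotation gives it no gene class name, and no function is stated for it here. Its level was 39.9 and 30.1 RPKM in the KO libraries, 312 and 349 RPKM in the OE libraries and 219 and 214 RPKM in the WT libraries. The KO libraries stood far below all others, while the OE libraries were moderately above the WT libraries.

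As a ratio of mean RPKM, *F46F2.3* in KO was at 0.162 ± 0.0322 of WT, and in OE at 1.53 ± 0.125 of WT (SD propagated from both genotypes, n = 2 each). The log2 change was -2.62 in KO and 0.61 in OE, so the KO change was larger by 2.02. This was rank 2 of 85 by absolute size difference, and the gene held rank 5 by the KO change and rank 48 by the OE change. With each library shifted to a common median over the table, the KO change was -2.96 in place of -2.62 and the OE change 0.98 in place of 0.61. That median was taken over genes selected for opposite changes, so it is no neutral scale. The KO libraries, with 434 and 357 reads, differed from each other by 0.40 on the log2 scale, against a median of 0.10 for the 85 genes, and the WT libraries by 0.04.

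*ccch-1* (WBGene00009532) showed the other strong KO response, with a higher level than in WT. Its name stands for the CCCH zinc finger, in which cysteines and a histidine hold a zinc ion. In mammals, tristetraprolin and its relatives carry such fingers, bind AU-rich stretches of mRNA and promote its decay. The gene spans positions 11527831 to 11541219 of chromosome V on the plus strand (WBcel235), with 2 annotated transcripts of 8 and 10 exons. It spans 4 short non-coding genes of the opposite strand, none of which meets one of its exons.

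*ccch-1* was at 70.2 and 72.1 RPKM in the KO libraries, at 11.4 and 14.0 RPKM in the OE libraries and at 19.7 and 17.3 RPKM in the WT libraries. The KO libraries were close to each other and far above the rest, and the OE and WT libraries did not overlap but were near each other. In KO the mean was 3.84 ± 0.368 times that of WT, and in OE it was 0.686 ± 0.120 times that of WT (SD, n = 2 each). The log2 change was 1.92 in KO and -0.53 in OE, so the KO change was larger in size by 1.39. After the shift to a common library median the OE change was -0.15 and the KO change was still 1.58. The small OE difference thus depended on the scaling. Since that median comes from the selected genes, the shift cannot decide which OE value is nearer the truth. The lowest count in any library was 542 reads.

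The list of CCCH zinc finger genes had no further member in the table. Of the 4 genes named *ccch* in the annotation 1 was in the table, as was 1 of the 2 EndoU genes named *endu* and 1 of the 7 genes named *msrp*, so no relative of these 3 members could be set beside them.

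*msrp-3* (WBGene00018497) had the largest response in OE of the 5 genes and the lowest level of them in OE and WT. It is a single-exon gene of chromosome II of WBcel235, from 814517 to 814837 on the minus strand, with a coding sequence of 318 bases. No function is stated for it here. It was at 26.0 and 26.5 RPKM in the KO libraries, at 1.58 and 1.05 RPKM in the OE libraries and at 12.1 and 10.6 RPKM in the WT libraries. The 3 genotypes were well apart, and the OE values were the lowest of any of the 5 genes in any library.

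Its OE values rested on 12 and 10 reads, with 95% Poisson intervals of 6.20 to 21.0 and 4.80 to 18.4 reads that cover counting error only. On the RPKM scale these are 0.815 to 2.76 and 0.502 to 1.92 RPKM, which leaves the OE libraries below the lower limits of 9.89 and 8.29 RPKM in the WT libraries. The KO mean was 2.31 ± 0.211 times the WT mean and the OE mean was 0.115 ± 0.0347 times it (SD, n = 2 each). The log2 change was 1.17 in KO and -2.72 in OE, a size difference of -1.55, the most negative of the 85 genes. From the spread of *msrp-3* alone the standard error of this difference was 0.33, against the pooled 0.27. After the shift to a common library median the changes were 0.84 in KO and -2.35 in OE. In the order of absolute OE changes *msrp-3* stood at rank 2 of 85. The mean was 20.0 times higher in KO than in OE, the widest span of the 5 genes.

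*endu-2* (WBGene00019779) also moved further in OE. It encodes an endoribonuclease of the EndoU family, enzymes that cut RNA next to uridines. The gene spans positions 8242301 to 8247869 of chromosome X on the plus strand (WBcel235), with 9 exons and a coding sequence of 1716 bases. A gene of the opposite strand, *kqt-2*, overlaps it and shares 3 exonic bases with it. No source used here states whether reads were counted by strand.

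*endu-2* was at 39.3 and 38.4 RPKM in the KO libraries, 9.0 and 11.8 RPKM in the OE libraries and 27.5 and 26.4 RPKM in the WT libraries. The KO libraries were modestly above the WT libraries, and the OE libraries were far below both. The mean in KO was 1.44 ± 0.0474 times that of WT and in OE 0.385 ± 0.0732 times that of WT (SD, n = 2 each). On the log2 scale the changes were 0.52 in KO and -1.35 in OE, a size difference of -0.83. With each library shifted to a common median the KO change was 0.18 and the OE change -0.97. The modest KO difference thus depended on the scaling. Since that median comes from the selected genes, the shift cannot decide which KO value is nearer the truth. The KO change of *endu-2* was below the median absolute KO change of 0.68 over the 85 genes, and its OE change was above the median absolute OE change of 0.64.

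*W02D9.6* (WBGene00012212) showed the opposite directions to *endu-2*, a modestly lower level in KO beside a much higher one in OE. It is a protein-coding gene on chromosome I of WBcel235 from 12560412 to 12560672, on the minus strand, with 1 exon and no gene class name. No function is stated for it here. It was at 8.55 and 10.9 RPKM in the KO libraries, at 48.8 and 52.4 RPKM in the OE libraries and at 18.2 and 15.2 RPKM in the WT libraries. The OE libraries stood far above the rest, and the KO and WT libraries did not overlap, with 10.9 and 15.2 RPKM as their closest values.

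The mean of *W02D9.6* was 0.582 ± 0.124 times that of WT in KO and 3.03 ± 0.418 times that of WT in OE (SD, n = 2 each). The log2 change was -0.76 in KO and 1.57 in OE, which gave a size difference of -0.82. With each library shifted to a common median the changes were -1.09 in KO and 1.95 in OE. The counts behind the KO values were 67 and 93 reads. The size difference ranged between -0.56 without WT replicate 2 and -1.08 without WT replicate 1. Its OE change was rank 6 of 85 by absolute size, and its KO change was rank 41.

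**Figure D2:**
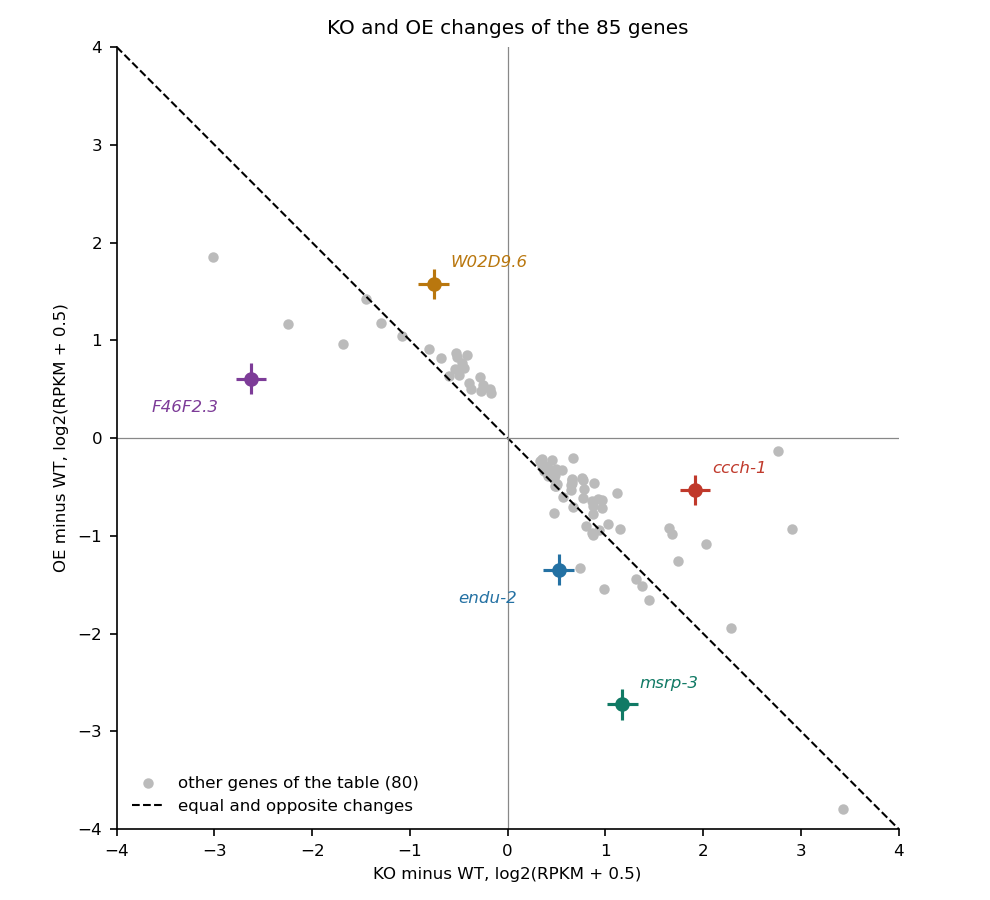
Change in KO (x axis) against change in OE (y axis), both as the difference from WT of log2(RPKM + 0.5), for the 85 genes. Coloured points are the 5 genes with bars of 1 standard error (0.16), grey points are the other 80 genes, and the dashed line marks equal and opposite changes. The bars rest on the pooled SD, so they are the same for every gene and do not reflect the few OE reads of *msrp-3*. All points lie in the upper left and lower right parts because the table was selected so. *F46F2.3* and *ccch-1* lie on the side of the line toward larger KO changes, and *msrp-3*, *endu-2* and *W02D9.6* on the side toward larger OE changes.

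The size differences of the 5 genes were then compared over single libraries. Taking 1 library per genotype gives 8 choices, which share libraries and are no independent repeats. For each of the 5 genes all 8 choices gave the same direction, as they did for 40.0% of the 85 genes. The values were 1.70 to 2.34 for *F46F2.3*, 1.04 to 1.74 for *ccch-1*, -1.95 to -1.15 for *msrp-3*, -1.08 to -0.57 for *endu-2* and -1.29 to -0.35 for *W02D9.6*. The widest range was that of *W02D9.6*, whose KO libraries were 0.33 apart on the log2 scale and whose WT libraries were 0.26 apart. The genes were chosen on the means of these libraries, so the same direction in all choices does not support the choice.

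**Figure D3:**
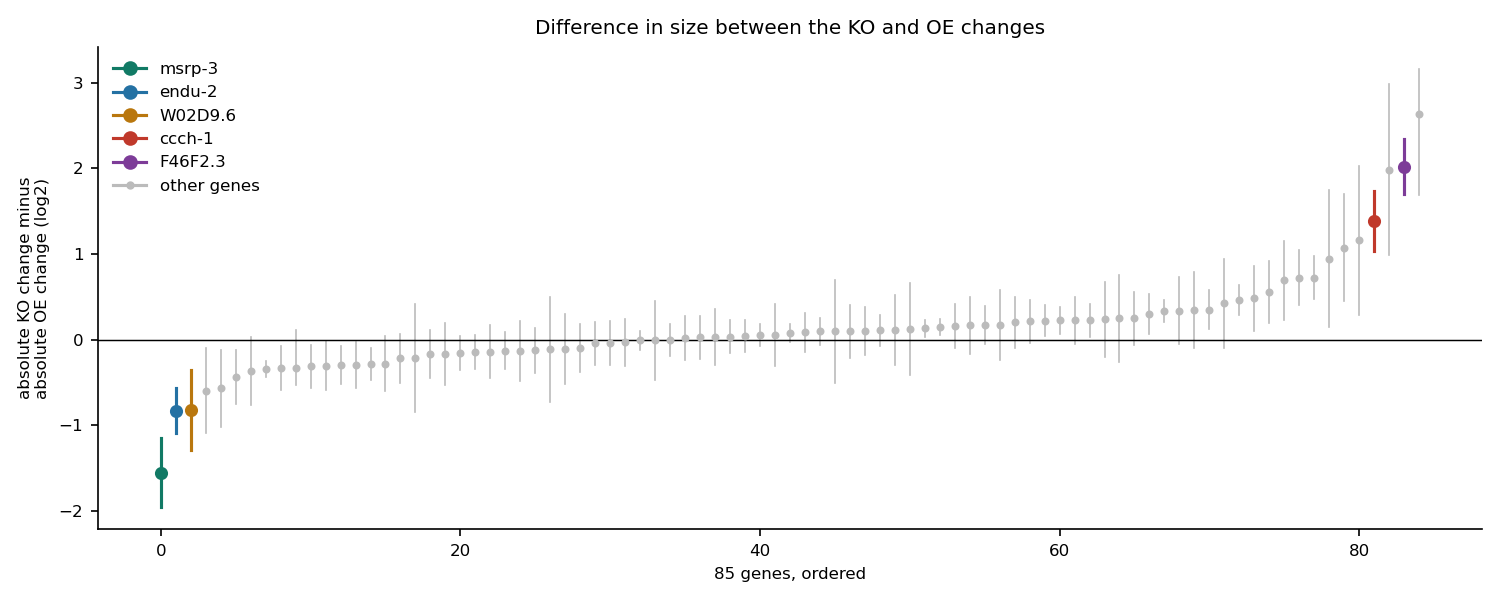
Absolute KO change minus absolute OE change on the log2(RPKM + 0.5) scale for the 85 genes in order of this value. Points are the values from the group means and lines span the 8 choices of 1 library per genotype. *msrp-3*, *endu-2* and *W02D9.6* are at the low end (-1.55, -0.83 and -0.82) and *ccch-1* and *F46F2.3* (1.39 and 2.02) near the high end.

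At the edge of the choice, the members nearest to equal change were *W02D9.6* at -0.82 and *endu-2* at -0.83. The next gene not chosen was sought on each side outside the collagen and immune families, with the *dod* genes counted among the immune genes. With the larger change in KO it was *rips-1* at 0.73, with changes of 1.65 in KO and -0.92 in OE. With the larger change in OE it was *C27C7.1* at -0.44, with -0.41 in KO and 0.85 in OE. *C27C7.1* and *F54C9.3*, given below, were named after their values were seen. Among the genes left out as immune, *dod-24* at 1.16 and *irg-4* at 1.07 had larger size differences than *W02D9.6* and *endu-2*, and on the other side *spp-18* and *clec-85* lay at -0.59 and -0.57. Outside those families *rips-1*, *tts-1* at 0.70 and *F54C9.3* at 0.56 were within 1 standard error (0.27) of *W02D9.6* and *endu-2* in absolute size difference.

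The wild-type level can also be given as its place between the 2 mutant levels, with 0% at the OE mean, 100% at the KO mean and 50% for equal steps. On the log2(RPKM + 0.5) scale WT lay at 18.8% for *F46F2.3* and 21.7% for *ccch-1*, near the OE end. It lay at 69.9% for *msrp-3*, 72.1% for *endu-2* and 67.6% for *W02D9.6*, nearer the KO end. The median over the 85 genes was 46.9%.

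The order of the 2 steps depended on the scale for 1 of the 5 genes. The difference of *msrp-3* from WT was 14.9 RPKM in KO and -10.1 RPKM in OE, so that the larger step was in KO, and all 8 choices of libraries gave the larger step in KO, by 2.84 to 6.77 RPKM. In ratios it was the reverse, as above. Its WT place was 40.3% on the RPKM scale.

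The other 4 genes kept the larger step in the same genotype on the RPKM scale. For *F46F2.3* the difference from WT was -182 RPKM in KO and 114 RPKM in OE, and the WT place was 38.5%. For *ccch-1* it was 52.6 RPKM in KO and -5.81 RPKM in OE, with WT at 9.94%. These were the genes with the larger step in KO. For *endu-2* the difference was 11.9 RPKM in KO and -16.6 RPKM in OE, with WT at 58.2%. For *W02D9.6* it was -6.99 RPKM in KO and 33.9 RPKM in OE, with WT at 82.9%, the highest of the 85 genes. Among all 85 genes the genotype with the larger step differed between the 2 scales for 21. On the RPKM scale 59 of the 85 genes had the larger step in KO, and the median WT place was 38.1%. The places of *F46F2.3* and *msrp-3* on this scale were near that median.

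**Figure D4:**
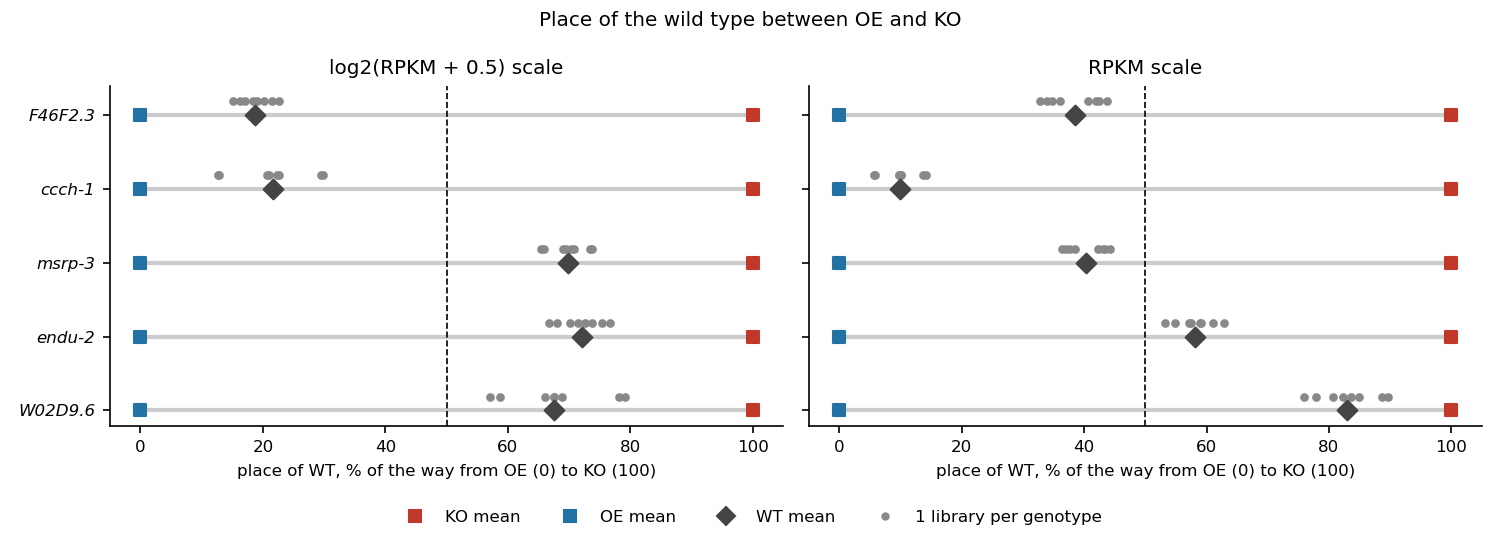
Place of the WT level as a percent of the way from the OE mean (0, blue) to the KO mean (100, red), on the log2(RPKM + 0.5) scale (left) and the RPKM scale (right). Diamonds are values from the group means, small points are the 8 choices of 1 library per genotype, and the dashed line marks equal steps at 50%. *msrp-3* lies on opposite sides of that line on the 2 scales, at 69.9% and 40.3%.

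The order of the 5 genes by level differed between the genotypes. RPKM is divided by gene length, so levels can be set beside each other, but the length used for *W02D9.6*, recovered from the values as 450 bases, was 1.72 times its annotated length of 261 bases, and that for *msrp-3*, 398 bases, was 1.24 times the annotated 321 bases. The ratio was between 0.925 and 1.08 for the other 3 genes. In KO the order of mean RPKM was *ccch-1* (71.1 ± 1.32), *endu-2* (38.8 ± 0.622), *F46F2.3* (35.0 ± 6.94), *msrp-3* (26.2 ± 0.347) and *W02D9.6* (9.72 ± 1.65), where the libraries of *endu-2* and *F46F2.3* overlapped.

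In OE the order of mean RPKM was *F46F2.3* (330 ± 26.4), *W02D9.6* (50.6 ± 2.50), *ccch-1* (12.7 ± 1.87), *endu-2* (10.4 ± 1.95) and *msrp-3* (1.31 ± 0.376), with overlapping libraries for *ccch-1* and *endu-2*. In WT it was *F46F2.3* (217 ± 3.95), *endu-2* (26.9 ± 0.772), *ccch-1* (18.5 ± 1.74), *W02D9.6* (16.7 ± 2.15) and *msrp-3* (11.4 ± 1.03; SD, n = 2 each throughout), with overlapping libraries for *ccch-1* and *W02D9.6*. *ccch-1* was thus the highest of the 5 in KO, *F46F2.3* the highest in OE and WT, and *W02D9.6* the lowest in KO but above all others except *F46F2.3* in OE.

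The genes most like each member were those with the smallest Euclidean distance between the 6 values of log2(RPKM + 0.5), each gene centred on its own WT mean. The points of a gene share libraries, so the distances are descriptions. *endu-2* had the closest match, the saposin-like gene *spp-18* at a distance of 0.35, with changes of 0.74 in KO and -1.33 in OE and so also further in OE. Its second was the galectin gene *lec-9* at 0.71. The median distance of the other 84 genes to *endu-2* was 1.49.

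*ccch-1* was nearest to *rips-1* at 0.68 and to *tts-1*, a long non-coding RNA, at 0.78, and *tts-1* had changes of 1.68 in KO and -0.99 in OE. *W02D9.6* was nearest to *ZK105.1* at 0.93 and *Y57G11B.5* at 0.95, both of which changed by at least 1 in each genotype with sums close to 0. *F46F2.3* was nearest to the infection response gene *irg-4* at 1.16 and to *F55G11.2* at 1.51, both lower in KO. *msrp-3* had no close match, with *F21C10.10* at 1.71 and *sdz-24* at 1.81. The nearest genes of *msrp-3* had OE changes of -1.65 and -1.51, against -2.72 for *msrp-3*.

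On the sum of the KO and OE changes, the genes outside the 5 with the most extreme values were collagens at one end and genes counted as immune at the other. *dod* stands for downstream of DAF-16, a transcription factor of insulin signalling. *col-144* had changes of 2.76 in KO and -0.13 in OE, a size difference of 2.63, *col-180* had 1.99 and *col-150* had 0.95. *dod-24* moved by -3.01 in KO and 1.85 in OE, a size difference of 1.16, which was 1.07 for *irg-4* and 0.73 for *F55G11.2*. All 6 moved further in KO on the log2 scale, as *F46F2.3* and *ccch-1* did, but on the RPKM scale *dod-24*, *irg-4* and *F55G11.2* moved further in OE.

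Besides *msrp-3*, 12 of the 85 genes differed from WT by at least 1 on the log2 scale in both genotypes, and some did so almost equally. *dod-23* changed by -1.45 in KO and 1.42 in OE, a size difference of 0.03, and *ZK105.1* by -1.08 and 1.05, likewise 0.03. *Y57G11B.5* had a size difference of 0.11. Strong responses in both genotypes were thus found with and without unequal size. Both *dod* genes of the table were lower in KO and higher in OE (2 of 2 each by limma at an adjusted p under 0.05). This stands beside 23.5% of the 85 genes lower in KO and 29.4% higher in OE. In this table the direction in OE follows from that in KO, so the 2 counts are no separate results, here or for the *clec* genes below. Without KO replicate 1, 10 in place of 20 of the 85 genes were lower in KO, and both *dod* genes still were. Of the 4 *clec* genes, which encode C-type lectins, 3 were higher and 1 lower in KO, and 3 were lower and 1 higher in OE, beside 70.6% of the 85 genes higher in KO and 60.0% lower in OE. Without KO replicate 1 or without WT replicate 1, 0 of the 4 were lower in KO.

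The 5 genes did not lie together in the genome. They sit on chromosomes I, II, V and X, with *endu-2* and *F46F2.3* both on X, 7011710 bases apart. The nearest other gene of the table was *sdz-24* for *msrp-3*, at 154671 bases, and at least 326499 bases away for the other 4. Sequences of the genes were not analysed here.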

How the data were processed

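Polyadenylated RNA of *hlh-11* KO, *hlh-11* OE and wild-type worms was sequenced, with 2 libraries each. Alignment by the authors was to WBcel235 with TopHat2, their test of expression was DESeq2's, and the submitters' processing notes also name FastQC 0.11.5. No source used here names the read counter, its annotation or its use of strand. The deposited RPKM values cover 85 genes selected by the authors, with no columns of comparisons. Reads came out whole for 510 of 510 values (tolerance 1e-06 reads), at library totals for which 4 to 6 genes had their annotated length, so totals and reads are inferred and a total could be off by a whole factor. Both this step and the fit were tested on simulated data, where the step did not recover every library total or gene length.

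limma 3.58.1 (R 4.3.3, lmFit and eBayes, two-sided, Benjamini-Hochberg over 85 genes, threshold 0.05) was fitted to log2(RPKM + 0.5) over 6 libraries, because RPKM are not counts. The SD was pooled over all genes. Alternatives were pseudocounts of 0.1, 1 and 0 (the last added after the data were seen), a mean of at least 5 RPKM, a common library median, limma-trend, no empirical Bayes, 1 mutant genotype with WT only, a replicate block, each library left out and the RPKM scale. Annotation was Ensembl release 115.

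The 5 genes and the gene lists were chosen with earlier results of these data known. Genes named beside them are the 2 nearest to each in centred log2(RPKM + 0.5), the 3 highest and 3 lowest sums of KO and OE changes, and the 3 sums nearest 0 among genes with both changes of at least 1. *C27C7.1*, *F54C9.3*, *clec-85*, *act-5*, *gst-4* and *kqt-2* fall outside that rule.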

Additional observations from a re-analysis of the deposited data

How the results depend on the processing

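The direction of the size difference (absolute KO change minus absolute OE change) held for all 5 genes on the log2 scale with the other pseudocounts, the common library median and each library left out, and on the RPKM scale for 4. The replicate block cannot alter this value, since every genotype has the same replicate numbers. The exception was *msrp-3*, at -1.55 on the log2 scale and 4.81 RPKM on the RPKM scale. Its value was also -1.84 with a pseudocount of 0.1, -1.28 with a pseudocount of 1 and -1.93 with no pseudocount. Leaving out each library in turn gave 1.82 to 2.22 for *F46F2.3*, 1.20 to 1.57 for *ccch-1*, -1.76 to -1.34 for *msrp-3*, -1.01 to -0.64 for *endu-2* and -1.08 to -0.56 for *W02D9.6*. Of 150 single KO or OE changes of the 5 genes under the alternatives, 80 could differ from the value given, since the rest alter only the error, the genes tested or the libraries of the other mutant, and 21 of these 80 moved by more than the pooled SD. None changed sign.

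Shifting each library to a common median removed a difference in that median of 0.34 between KO and WT and of -0.38 between OE and WT. It gave 38 genes higher and 25 lower in KO (60 and 20 as deposited) and 25 higher and 23 lower in OE (25 and 51 as deposited). The median was taken over genes selected for opposite changes, so it is no neutral scale.

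Over all 85 genes, limma called 7 genes with the larger change in KO and 3 with the larger change in OE (8.24% and 3.53%). With each gene's own spread limma called 0 and 0, and 7 and 1 at an unadjusted p under 0.05. The genes larger in OE numbered 1 with no pseudocount, 1 under limma-trend and 1 with the replicate block. Leaving out 1 library gave 2 to 7 genes larger in KO and 0 to 4 larger in OE (2 and 0 without WT replicate 2, 4 and 0 without WT replicate 1), 50 to 60 higher and 10 to 22 lower in KO, and 24 to 25 higher and 35 to 55 lower in OE. A gene's own spread has 3 residual degrees of freedom. Deviations of same-numbered libraries correlated at -0.14 (KO and WT), -0.11 (OE and WT) and -0.13 (KO and OE) across genes. With 2 replicate numbers these values cannot decide whether same-numbered libraries were handled together. With the replicate block 59 genes were higher and 20 lower in KO, and 25 were higher and 48 lower in OE. The OE values of *msrp-3* rest on 12 and 10 reads.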
